A study of Rattus norvegicus with 4 samples.

Results

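The genes described here encode the proteasome and its helpers, measured in PC12 cells that carried either a MAX expression plasmid or an empty vector. Membership followed gene names, by a rule set with earlier results of these data known. The rule took every non-control probe whose RefSeq accession belongs to a rat gene with a symbol that starts with Psma, Psmb, Psmc, Psmd, Psme, Psmf or Psmg, other than Psmb8 and Psmb9. This gave 36 of 41012 probes, for 32 genes, of which Psma6, Psmc4, Psmd1 and Psmd2 had 2 probes each. The rule also took Psmc3ip, which encodes a recombination protein of meiosis, and Psme3ip1, whose product binds the activator PA28 gamma. Neither encodes a subunit, activator or assembly chaperone of the proteasome, so both are given apart, which leaves 30 proteasome genes. All 32 genes were well above background on all 4 arrays, so the filter on dim probes removed none of them. No probe was named here for the catalytic subunit gene Psmb5, for Psmc6, Psmd7, Psmd8, Psmd11, Psmd13 or Psmd14, for the activator gene Psme4, for the inhibitor gene Psmf1 or for the assembly genes Psmd5 and Psmg1 to Psmg4.

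The proteasome is the protease that degrades proteins tagged with ubiquitin. Its barrel, the core particle (20S), is built from rings of alpha subunits, which gate the entrance, and rings of beta subunits, some of which cut peptide bonds. The regulatory particle (19S) sits on the barrel's ends: its non-ATPase subunits bind and strip ubiquitin, and its ATPases unfold the substrate. PA28 rings can open the same entrance without ubiquitin. Cells that lose proteasome activity are known to raise the subunit genes together through the transcription factor NFE2L1.

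PC12 is a rat line from a pheochromocytoma, a tumour of adrenal chromaffin cells, and is known to lack a functional MAX, the protein with which MYC binds DNA. Of the groups, one was PC12 transfected with an empty vector and the other PC12 transfected with a plasmid that codes for MAX, both by nucleofection and both after selection with the drug the labels call E418. Each group was 1 transfected line with 2 one-colour arrays, from RNA taken at passage 8 and at passage 13; which replicate belongs to which passage is not stated. Replicates therefore differ by passage, and the MAX vector replicates also by slide, which cannot be told apart here. The spread between independent transfections has no measure here.

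Facts of the whole series bear on every value below. The probe for Max itself was well above background on 0 of the 4 arrays, and whether the plasmid's transcript contains its target was not analysed, so the labels have no check from it. The share of probes well above background ran from 64.4% to 71.5% per array, with 0 saturated spots. MAX vector replicate 1 lay alone on slide 2 and the other 3 arrays on slide 1, so within-slide values rest on MAX vector replicate 2. Of 11 chromaffin marker genes with a probe, 8 were well above background on all 4 arrays, and their summed scaled signal was 20.2 and 20.3 on the empty vector arrays, against 11.7 and 11.5 on those of MAX. Most of that sum is Ddc, for the decarboxylase of dopamine synthesis, which fell to 0.472-fold (adjusted p = 0.0391 in limma), while Th, for tyrosine hydroxylase, rose 4.42-fold (adjusted p = 0.0203 in limma); these were the called genes of the list, 1 in each direction, and with the slide as a block neither passed (adjusted p = 0.109 and 0.0694 in limma). All 5 epithelial markers (5 of 5 well above background on all arrays) summed to 2.69 and 3.39 against 14.2 and 14.5. Of these, 3 were called higher in limma: Krt13 (12.2-fold, adjusted p = 0.0421), Krt15 (12.9-fold, 0.0388) and Krt19 (9.11-fold, 0.0263). On slide 1 alone their log2 fold changes were 3.89, 3.72 and 3.11. Epcam (1.96-fold) and Cdh1 (2.47-fold) were not called. For 5 macrophage markers the sums were 4.86 and 5.60 against 9.09 and 8.83, with 1 marker above background on no array. Most of that sum is Cd14 (1.76-fold, adjusted p = 0.100 in limma). Of the other markers tested, Lyz2 had 2.50-fold at a dim signal, Cd68 1.35-fold and Csf1r 1.04-fold, with 0 of the 4 called. The 4 fibroblast markers with a probe ranged from 127.5 to 144.5 over all arrays, nearly all of it Col3a1; of the others, Lum had 0.437-fold and Dcn 1.68-fold, with 0 of the 4 called. The 5 Schwann cell or glial markers summed to between 0.456 and 0.579. The part of these markers in the proteasome values was not tested, and in bulk RNA fewer cells of a type and less RNA per cell cannot be told apart.

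Values below are log2 signals from which the array's own 75th percentile was subtracted, so a value of 0 lies at that percentile and a change in the RNA content of the whole cell would not show. Every proteasome gene lay above that percentile on every array, from 1.89 for Psmd10 to 7.35 for Psmd1. Levels are not compared between genes, since probes differ in brightness.

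No proteasome gene passed a test of MAX vector against empty vector. In limma, a linear model test that shares its estimate of the spread between genes, 0 of the 32 genes had an adjusted p under 0.05, where 0.840% of the 25356 genes tested did, and 0 had an unadjusted p under 0.05, where 16.1% of all genes did. Log2 fold changes of the 30 proteasome genes ran from -0.20 to 0.20, and 17 of them were smaller than their own standard error. So were those of 11075 of the 25356 genes tested. The smallest adjusted p among the 30 was 0.366 in limma, for Psmd1. The 95% intervals of all 30 fell within 1.5-fold in both directions, as did those of 14600 of the 25356 genes tested. Among the 30 the lowest limit was 0.677-fold, for Psmc3, and the highest 1.46-fold, for Psme1. Changes smaller than these limits were not resolved, and a p that misses the threshold does not show that levels were equal. With the slide as a block, 28 of the 30 intervals stayed within 1.5-fold, with limits from 0.612- to 1.40-fold, and again 0 of the 30 genes passed (0 at an unadjusted p under 0.05), beside 0.0316% of all genes.

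**Figure D1:**
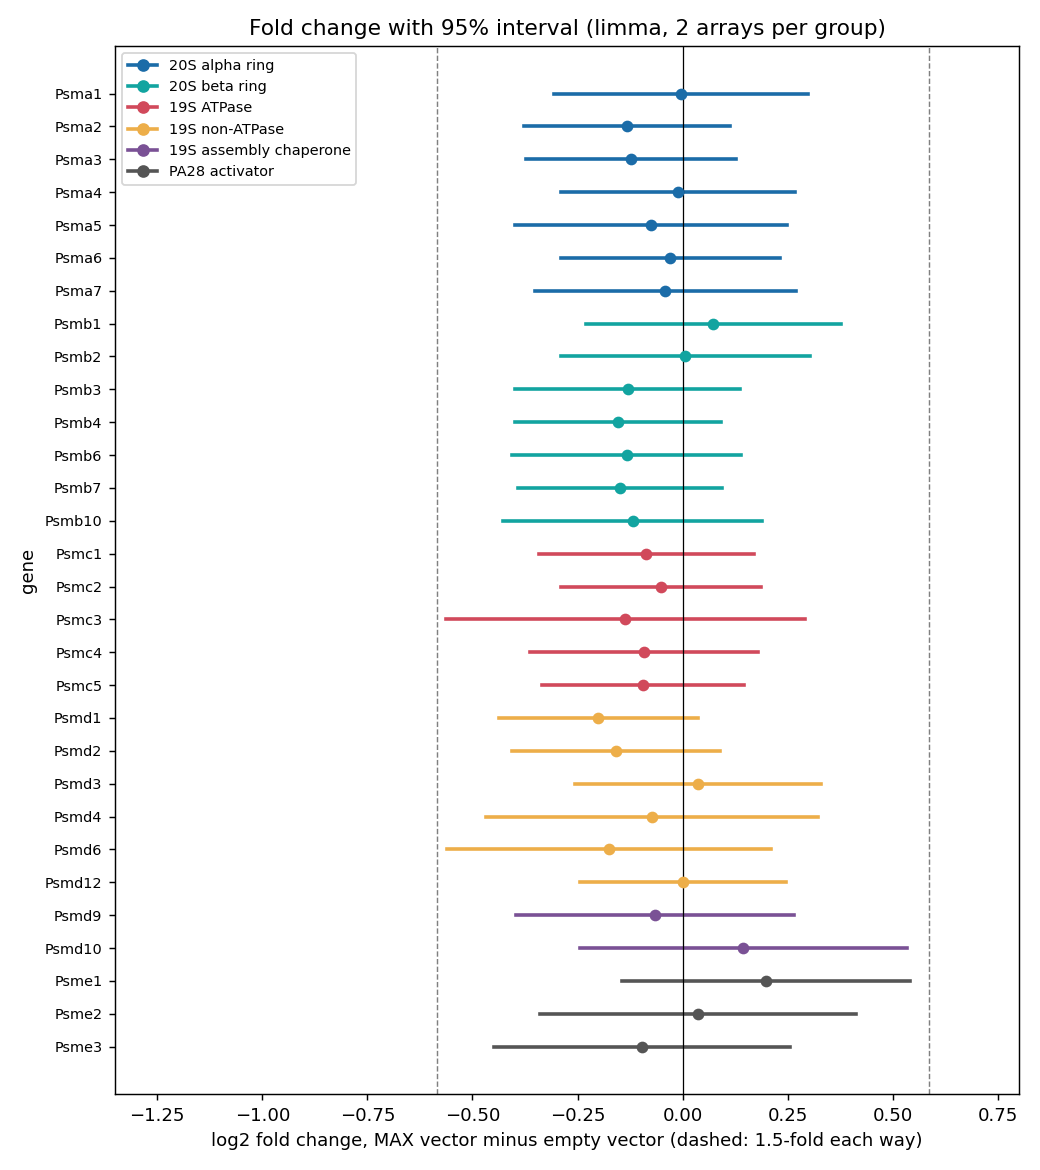
Log2 fold change of each of the 30 proteasome genes (points, MAX vector minus empty vector) with its 95% interval from limma (lines, 2 arrays per group), coloured by subcomplex; dashed lines mark 1.5-fold each way. Every interval crosses 0 and none reaches a dashed line.

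The fold changes of proteasome genes spanned a narrower range than those of all genes, given here as a description with no test. Their SD was 0.09 on the log2 scale, against 0.45 over all genes tested, and their median size, sign set aside, was 0.09 against 0.16. The median standard error was 0.10 for proteasome genes and 0.12 for all genes, but the largest was 0.15 against 2.05. The SD over all genes thus includes far noisier genes, and their part in it was not tested. The median log2 fold change was -0.08 (0.945-fold), against -0.02 over all genes, and 23 of 30 members were negative, against 53.5% of all genes. This small downward median was -0.06 with quantile normalization and -0.06 with each array's median subtracted. Without MAX vector replicate 2 it was 0.0039, and on slide 1 alone, where replicate 2 is the 1 array with MAX, it was -0.12 with 28 of 30 negative. Over all genes tested, 12367 of 25356 were negative on slide 1 alone.

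**Figure D2:**
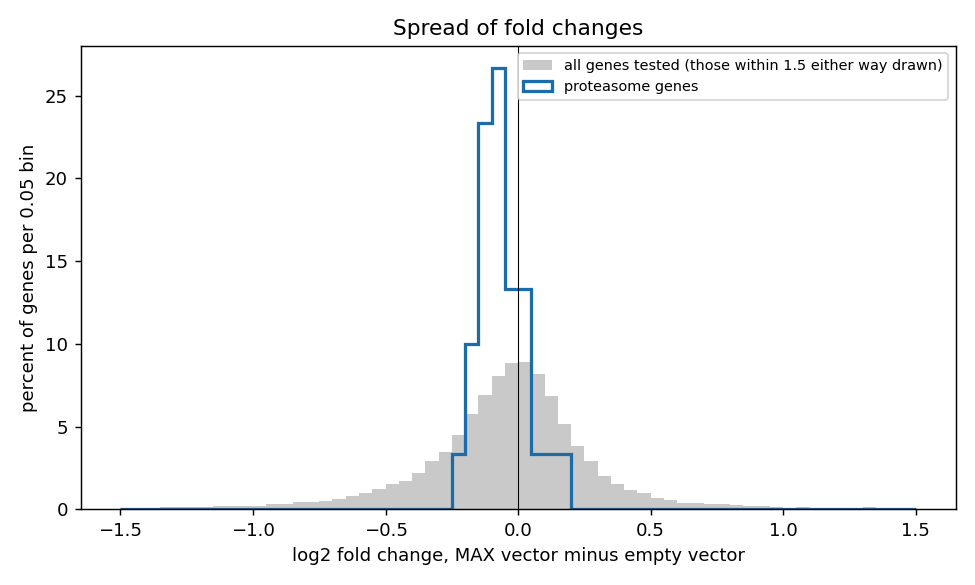
Log2 fold changes (x axis, bins of 0.05) of the 25356 genes tested (grey) and of the 30 proteasome genes (blue outline), each as a percent of its own set; only values within 1.5 either way are drawn. The proteasome genes fill a narrow band from -0.20 to 0.20.

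The alpha ring genes Psma1 to Psma7, whose products form the gated entrance, had 0 calls in 7, with log2 fold changes from -0.13 to -0.0037 and a median of -0.04. Psma2 had -0.13 ± 0.09 (SE, n = 2 arrays per group) and Psma3 -0.12 ± 0.09, and in both the MAX vector arrays lay below the empty vector arrays without overlap, as in 26.0% of all genes. Nearer to 0 lay Psma5 at -0.08, Psma7 at -0.04, Psma6 at -0.03, Psma4 at -0.01 and Psma1 at -0.0037, each with overlapping groups. The 2 probes of Psma6 gave -0.03 and -0.12. All 7 were negative here, but 5 of 7 with each array's median subtracted, and the median was 0.03 without MAX vector replicate 2, -0.11 without MAX vector replicate 1 and -0.06 without empty vector replicate 2.

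Of the beta ring genes, 0 of 7 were called, with a median of -0.13 (-0.07 without MAX vector replicate 2, -0.08 without empty vector replicate 1). Psmb4, a structural subunit, read 6.48 and 6.47 on the empty vector arrays and 6.36 and 6.28 on the MAX vector arrays, a log2 fold change of -0.15 ± 0.09 (adjusted p = 0.474 in limma). The catalytic subunit gene Psmb7, for the trypsin-like activity, read 4.65 and 4.71 against 4.54 and 4.52 (-0.15 ± 0.09, adjusted p = 0.484 in limma). In both genes both MAX vector arrays lay below both empty vector arrays, as in 26.0% of all genes. Psmb6, for the caspase-like activity, read 4.38 and 4.27 against 4.24 and 4.14 (-0.13 ± 0.10), also without overlap. Psmb3 was likewise lower on both arrays (-0.13 ± 0.10). Psmb1 went the other way, at 4.61 and 4.63 against 4.79 and 4.60 (0.07 ± 0.11), and MAX vector replicate 2 lay just below the empty vector arrays. Psmb2 read 6.07 and 5.97 against 6.10 and 5.95 (0.01 ± 0.11), so its groups overlapped. With each array's median subtracted, the groups of Psmb7 stayed apart, while those of Psmb3, Psmb4 and Psmb6 overlapped.

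Interferon gamma is known to exchange the catalytic beta subunits for the immunoproteasome's own, among them Psmb10, which takes the place of Psmb7. Psmb10 read 4.69 and 4.56 on the empty vector arrays and 4.59 and 4.43 on the MAX vector arrays (-0.12 ± 0.11, adjusted p = 0.643 in limma), with overlapping groups. Psmb8 and Psmb9, outside the chosen genes, had -0.13 ± 0.11 and -0.18 ± 0.14. Beside the subunits they replace, Psmb10 had -0.12 and Psmb7 -0.15, and Psmb9 had -0.18 and Psmb6 -0.13. Whether the members of a pair differ was not tested.

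The regulatory particle's ATPase genes Psmc1 to Psmc5, whose products form the unfolding motor, had 0 calls in 5 and a median of -0.09. All 5 were negative, from -0.14 for Psmc3 to -0.05 for Psmc2, under the main and both other scalings, but 4 of 5 without MAX vector replicate 2 and with normexp, another background correction. Psmc4 read 3.83 and 3.80 on the empty vector arrays and 3.79 and 3.65 on the MAX vector arrays (-0.09 ± 0.10), and its second probe gave -0.06. Psmc1 and Psmc5 each had -0.09 ± 0.09. In the 4 genes other than Psmc3 both MAX vector arrays lay below both empty vector arrays, as in 26.0% of all genes. With each array's median subtracted this held in 0 of them. The median of the 5 ran from -0.12 without MAX vector replicate 1 to -0.03 without MAX vector replicate 2. Psmc3 read lowest on MAX vector replicate 2, and on slide 1 alone its value was -0.29.

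Of the 6 non-ATPase genes, 0 were called, with a median of -0.12 (-0.05 without MAX vector replicate 2, -0.07 without empty vector replicate 1 and -0.18 without empty vector replicate 2). Psmd1 and Psmd2 encode the large scaffold subunits of the regulatory particle's base. Psmd1 (probe for NM_031978) read 7.31 and 7.35 on the empty vector arrays and 7.13 and 7.13 on the MAX vector arrays, a log2 fold change of -0.20 ± 0.08 (0.870-fold, 95% interval -0.44 to 0.04). It was the 1 proteasome gene whose difference exceeded 2 standard errors, a mark that 27.5% of all genes passed. Its second probe gave -0.19 ± 0.10, and a fit that holds the slide constant again gave -0.20. With a spread that follows signal level its unadjusted p was 0.0223 and its adjusted p 0.186 in limma. Psmd2 read 7.31 and 7.29 against 7.18 and 7.10 (-0.16 ± 0.09), and its second probe gave -0.14. For both scaffold genes the MAX vector arrays lay below the empty vector arrays, by either probe of each gene, as in 26.0% of all genes. With each array's median subtracted, the brighter probe of Psmd1 kept this and that of Psmd2 did not.

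Psmd6, a lid subunit gene, read 2.36 and 2.22 against 1.98 and 2.25 (-0.18 ± 0.14), so its value came from MAX vector replicate 1, and on slide 1 alone it was -0.04. Psmd4, which encodes a ubiquitin receptor of the proteasome, read 5.04 and 4.83 against 4.98 and 4.75 (-0.07 ± 0.14), and its replicates lay further apart than its groups. The lid genes Psmd3 and Psmd12 had 0.04 ± 0.10 and 0.00 ± 0.09. Psmd3 read 3.42 and 3.53 against 3.58 and 3.45, with overlapping groups.

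Of the 5 assembly chaperone and activator genes 0 were called, and 3 were positive, against 4 of the 25 genes of the barrel and the regulatory particle. On slide 1 alone these counts were 2 and 0. Without MAX vector replicate 2 they were 4 of 5 and 11 of 25. Psmd10, which encodes gankyrin, a chaperone of the regulatory particle's base, read 1.89 and 2.08 on the empty vector arrays and 2.25 and 2.0 on the MAX vector arrays (0.14 ± 0.14), with overlapping groups. Psmd9, another base chaperone gene, had -0.07 ± 0.12. Psme1, for the alpha subunit of the interferon-inducible activator PA28, read 4.22 and 4.07 against 4.44 and 4.24 (0.20 ± 0.12, 1.15-fold, adjusted p = 0.504 in limma). It was the 1 proteasome gene with both MAX vector arrays above both empty vector arrays. Its partner Psme2 read 4.85 and 4.89 against 5.06 and 4.76 (0.04 ± 0.13), and MAX vector replicate 2 there lay below the empty vector arrays. Psme3, for the nuclear form PA28 gamma, had -0.10 ± 0.13. On slide 1 alone Psme1 had 0.10, Psme2 -0.11 and Psme3 -0.22. Of the genes given apart, Psmc3ip read 1.5 and 1.31 against 1.29 and 1.12 (-0.20 ± 0.12) and Psme3ip1 had -0.05 ± 0.11.

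**Figure D3:**
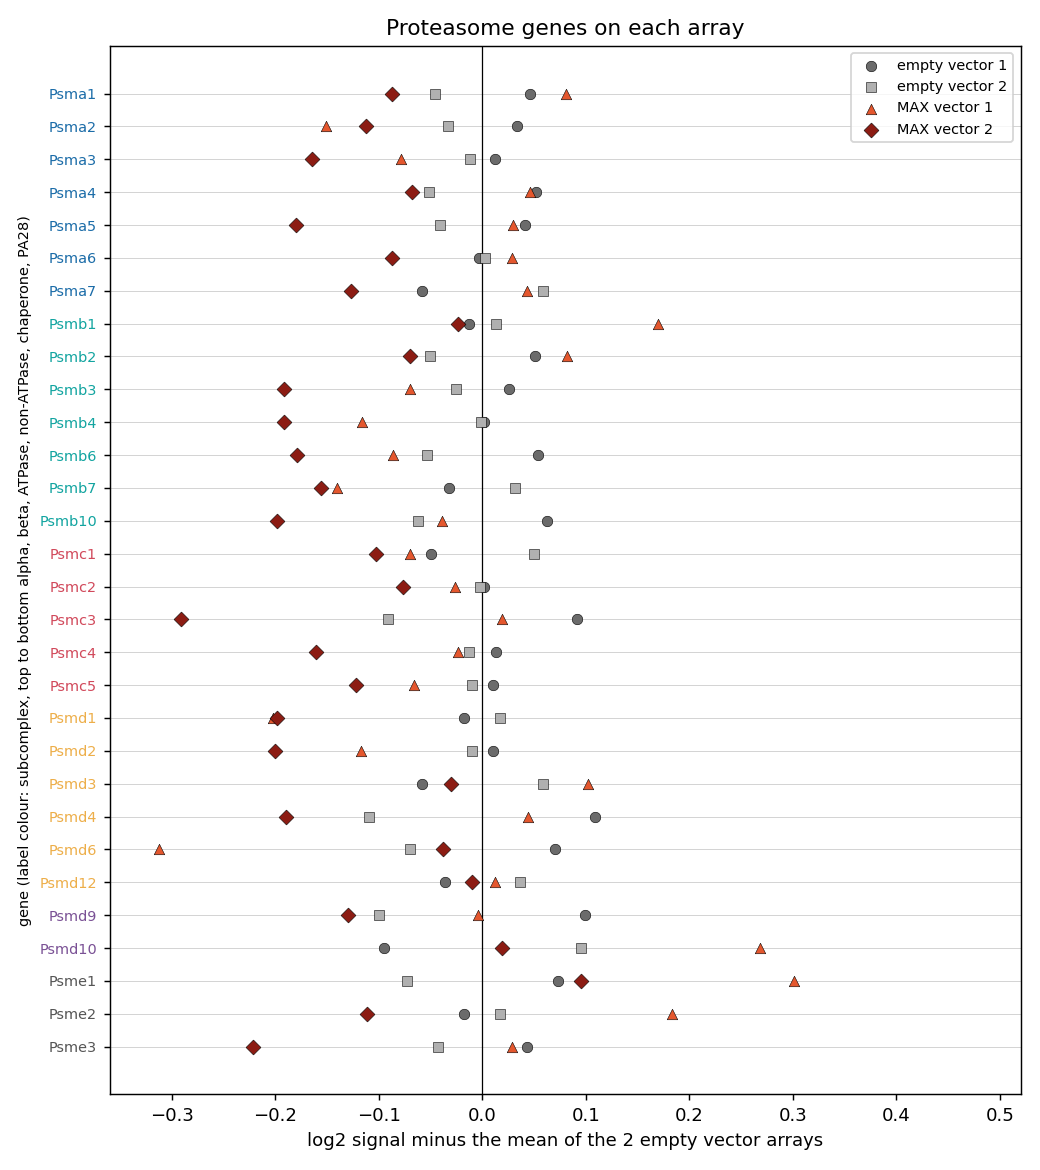
Signal of each proteasome gene on each of the 4 arrays (x axis, log2 units, minus the mean of the 2 empty vector arrays); grey marks are empty vector arrays and red marks MAX vector arrays. In 27 of 30 genes MAX vector replicate 2 (diamonds) lies left of MAX vector replicate 1 (triangles). Over all genes tested, replicate 2 is the lower of these arrays in 12137 of 25356.

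Counted by array, 12 of the 30 genes had both MAX vector arrays below both empty vector arrays, where 26.0% of all genes did, and 1 had both above, where 24.2% did; with each array's median subtracted the 12 became 3 (Psmb7, Psmd1 and Psmd6, the last not among the 12) and the 1 became 0. All 12 encode subunits of the barrel (6 of 14) or the regulatory particle (6 of 11), which together make up 25 of the 30 genes. The MAX vector arrays differed in how far they lay from the controls. On MAX vector replicate 2, 28 of 30 genes lay below the empty vector mean, with a median difference of -0.12, against 0.01 over all genes. On MAX vector replicate 1, 15 of 30 did, with a median of 0.0039, against -0.03 over all genes. Of all 25356 genes tested, 12367 lay below that mean on replicate 2 and 13837 on replicate 1. The exceptions on replicate 2 were Psmd10 and Psme1. The difference between the MAX vector arrays had a median size of 0.13, larger than the median size of 0.09 between the groups. Between the empty vector arrays the median size was 0.08.

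**Figure D4:**
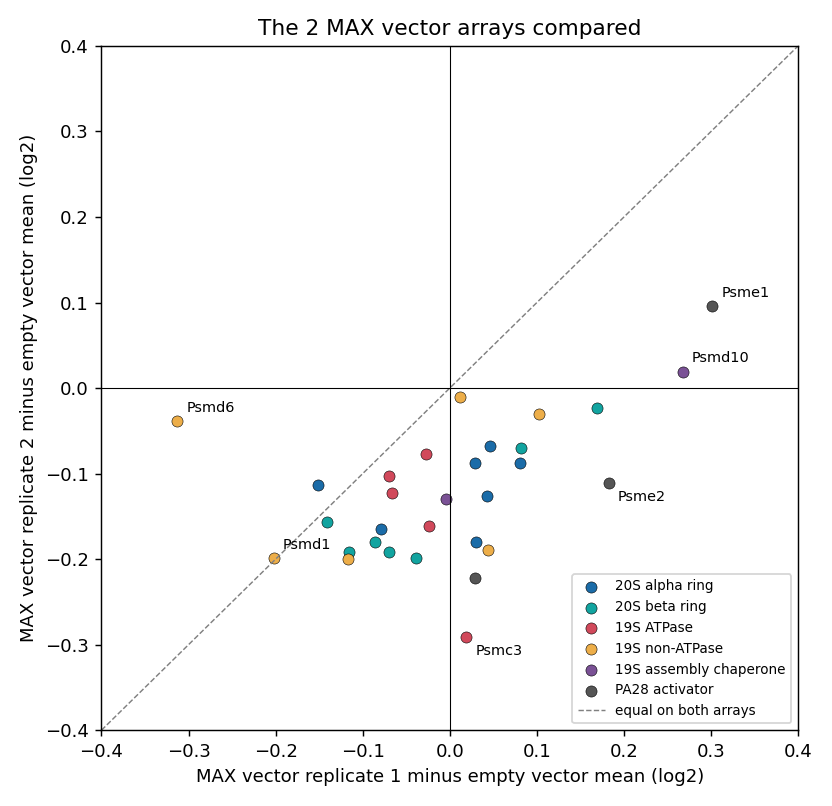
Each proteasome gene's signal on MAX vector replicate 1 (x axis) and replicate 2 (y axis), both as log2 difference from the empty vector mean and coloured by subcomplex; the dashed line marks equal differences. All but 2 points lie below 0 on the y axis, while on the x axis 15 of 30 do.

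The promoters of these genes were examined for the DNA motif that MAX binds with its partners, the E-box CACGTG, and for motifs of other regulators. RefSeq's promoter table (build GRCr8, 250 bases before to 50 after each gene's start) held 27 of the 30 genes; Psma7, Psmd6 and Psmd12 are not in it. The E-box was in 5 of 27 promoters (18.5%), against 6.42% of all 33469 promoters in the table. Sequences are shown 5′ to 3′ on the gene's strand, with the E-box in capitals and the flanking bases in lower case, because these are the letters that MAX is known to bind.
Psma4 (chr8:64236392-64236437, + strand): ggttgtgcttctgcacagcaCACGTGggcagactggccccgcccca
Psmb3 (chr10:83193537-83193566, + strand): agccCACGTGttgcaaactccgccccaagg
Psmc1 (chr6:125122304-125122349, + strand): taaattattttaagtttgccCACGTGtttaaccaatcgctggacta
Psmd9 (chr12:39018345-39018390, - strand): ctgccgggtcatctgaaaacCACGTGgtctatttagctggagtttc
Psme3 (chr10:86757838-86757883, + strand): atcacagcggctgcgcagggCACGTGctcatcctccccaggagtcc
The E-box began 75 bases before the start in Psme3, 106 in Psmd9, 108 in Psma4, 173 in Psmc1 and 246 in Psmb3. The 5 genes had log2 fold changes of -0.01 for Psma4, -0.07 for Psmd9, -0.09 for Psmc1, -0.10 for Psme3 and -0.13 for Psmb3, a median of -0.09. The median of the other 22 was -0.08. A match is a description of letters and not of binding. The promoters compared were not matched for base content, here or for the motifs below, and the difference in shares was not tested.

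The core motif of NFE2L1 and its relative NFE2L2, TGACNNNGC on either strand, was in 6 of 27 promoters (22.2%), against 12.1% of all. It is shown for Psmd1 (-0.20) and for Psmb2 (0.01), with the motif in capitals. In Psmd1 matches began 165 bases before and 22 after the start, and the former is shown.
Psmd1 (chr9:94157786-94157834, + strand): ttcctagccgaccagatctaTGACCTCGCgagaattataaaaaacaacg
Psmb2 (chr5:144254970-144255018, + strand): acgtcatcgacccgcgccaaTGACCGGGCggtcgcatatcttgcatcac
The 6 genes (Psma3, Psmb2, Psmb6, Psmd1, Psmd3 and Psmd9) ranged from -0.20 to 0.04, with a median of -0.09, and the other 21 also had a median of -0.09. The CCAAT box was in 15 of 27 promoters (55.6%; 37.5% of all) and the ETS core CCGGAAG in 7 (25.9%; 8.75% of all), either strand counted. Their holders had medians of -0.08 and -0.09. Fold changes of members with and without each of the 4 motifs thus had medians within the range -0.09 to -0.08.

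No call was made among other genes of the pathway either. The 26 listed partners of the proteasome include shuttle factors, a ubiquitin receptor, its deubiquitinases, regulators of its genes and the p97 segregase. Of these, 15 were tested, with 0 called in limma, 1 at an unadjusted p under 0.05, and a median of 0.01. The 1 was Rad23b, which encodes a shuttle factor that carries ubiquitinated proteins to the proteasome. It read 4.80 and 4.77 on the empty vector arrays and 4.57 and 4.5 on the MAX vector arrays (-0.25 ± 0.09, adjusted p = 0.307 in limma), without overlap. Adrm1, for a ubiquitin receptor of the proteasome whose symbol lies outside the rule, had -0.18 ± 0.12. Usp14, for a deubiquitinase of the proteasome, had -0.10 ± 0.11, Vcp, for the segregase p97, 0.09 ± 0.10, and Nfe2l2 -0.04 ± 0.09. Partners thus lay on both sides of 0, 7 negative and 8 positive. Nfe2l1 itself had no probe named here.

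Of 46 listed ubiquitin genes, 18 were tested, with 0 called (0 at an unadjusted p under 0.05 in limma) and a median of 0.04. On slide 1 alone the median was -0.03, with 11 of 18 negative. MAX vector replicate 2 lay below replicate 1 in 14 of the 18. The polyubiquitin gene Ubb had -0.07 ± 0.12. Ube2a, for a ubiquitin-conjugating enzyme, had the lowest value of the list, -0.29 ± 0.15, and Skp1, for a ubiquitin ligase subunit, the highest, 0.21 ± 0.13. Of 17 listed genes of the immunoproteasome and antigen presentation, 13 were tested, again with 0 called and 0 at an unadjusted p under 0.05, and a median of -0.06. Their median was -0.11 on slide 1 alone, and MAX vector replicate 2 lay below replicate 1 in 12 of the 13. That list holds Psmb10, Psme1 and Psme2 from the members; outside them, Tap1, for the peptide transporter, had -0.07 ± 0.09 and Tapbp, for tapasin, 0.24 ± 0.11.

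The RefSeq table lists 39 pseudogene copies for 15 of the 32 member genes, so a probe may bind more than 1 transcript; this was not analysed.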

How the data were processed

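Transcript levels were measured on 4 Agilent rat arrays (1 colour, Cy3), 2 per group, from total RNA. The deposited scanner files hold spot intensity, written by Feature Extraction 10.7.3.1 per the file headers (10.7 per the submitters' processing notes), background-subtracted and detrended within arrays but not scaled between them. The authors also deposited a table of log2 values; differences between its columns matched the values used here (r = 1), while the baseline each probe is centred on stays unknown (column medians -0.033, -0.011, -0.0054 and -0.0065).

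Outlier-marked spots (89 to 140 an array) were left out, log2 processed signals averaged per probe, and each array's 75th percentile subtracted. Probes well above background on at least 2 arrays entered, with the brightest probe per gene: 25356 genes from 28564 probes. Symbols came from RefSeq accessions (GRCr8 gene table; 10768 of 41012 probes). The comparison used lmFit and eBayes of limma 3.58.1 (two-sided; R 4.3.3; 3.94 degrees of freedom in total); p-values were adjusted over all genes by Benjamini-Hochberg, threshold 0.05; ± is an SE. The steps were tested on simulated data. Array number limits the precision. Normexp (offset 50) used median spot signals.

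The members and lists were chosen with earlier results of these data known. Values on every array are given for the 6 largest rises and 6 largest falls among the members and for set catalytic, ATPase, receptor and activator genes; of the pathway lists, the rule took genes past the threshold and the largest at an unadjusted p under 0.05, and others named there were chosen after their values were seen. Protein sequences of the subunits were not used here. Alternatives covered background correction, scaling, the filter, probes per gene, the variance trend, outlier marks, slide, replicate number, the deposited table and each array left out. Some genes of the pathway lists are not reported here by name.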

Additional observations from a re-analysis of the deposited data

How the results depend on the processing

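In all 16 alternatives limma called 0 proteasome genes, with at most 1 of them at an unadjusted p under 0.05; the lowest adjusted p of any was 0.186. The median log2 fold change stayed within the SD between replicates (0.06) of its value except without MAX vector replicate 2, where it was 0.0039; with an array left out it ran from -0.12 to 0.0039. Of the 30 genes, 15 kept their sign in all 15 alternatives run with 1 value per gene. Those that changed only the filter, the variance trend or the replicate block left these fold changes as they were. The slide block gave the same values as leaving out MAX vector replicate 1, so the alternatives are not separate checks. The number of genes with both MAX vector arrays below the others went from 12 to 3 with each array's median subtracted and to between 13 and 25 with an array left out, where fewer arrays must agree. Calls among all genes, 213 here, were 799 with normexp, 541 with array medians subtracted, 515 with all 4 arrays well above background, 955 with a trend on signal, 8 with the slide as a block and 0 with no filter (4033 at an unadjusted p under 0.05), and 0 to 144 with an array left out (0 without either empty vector array). With the replicate block 0 of all genes passed (3885 at an unadjusted p under 0.05), and the members' intervals ran from 0.632- to 1.57-fold. Deviations of same-numbered arrays from their group means had a correlation of -0.018 across genes. MAX vector replicate 1 lay on a slide of its own, so this value cannot show whether same-numbered arrays share a passage. The causes were not tested.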
